A study of Homo sapiens with 4 samples.

Results

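Long-read complementary DNA data from human embryonic stem cells (hESCs) were examined for 9 genes that are used to follow the naïve state of pluripotency, which were DPPA2, DPPA3, DPPA4, DPPA5, TFCP2L1, ESRRB, NR5A2, TFE3 and FBP1. They were taken by symbol, as 9 of 62218 genes and 37 of 242542 annotated transcripts. All cells came from H1, an established hESC line. Primed hESCs, labelled TesR, were kept in mTeSR1 medium on Matrigel at normal oxygen, and naïve hESCs, labelled FINE, were derived from them by a change to a naïve medium with Dasatinib, AZD5438, SB590885, PD0325901, Y-27632, LIF, Activin A and bFGF at low oxygen on reduced growth factor Matrigel. Each state had 2 Nanopore libraries. Alignments counted on transcripts came to 153647482 and 161548901 per naïve library and to 129276054 and 132927036 per primed library. Both states are thus a single line, and medium, inhibitors, oxygen and the way of passaging change together between them. Confluency differed as well, at 50% for the naïve and 60 to 70% for the primed samples. The sources do not say that replicates were separate cultures, so the p-values measure the spread between libraries, which may be technical.

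Naïve and primed hESCs stand for earlier and later stages of the epiblast of the embryo. The naïve state is known for low DNA methylation and for factors of the preimplantation embryo, and the primed state for dependence on FGF and Activin signals. The developmental pluripotency-associated (DPPA) genes share a name from their early expression rather than a common fold. DPPA2 and DPPA4 are SAP-domain proteins that bind chromatin as a pair, DPPA3 binds UHRF1 and limits maintenance methylation, and DPPA5 has a KH domain of the kind that binds RNA. TFCP2L1 is a CP2-family factor downstream of LIF and STAT3, ESRRB and NR5A2 are orphan nuclear receptors of the naïve network in mouse cells, TFE3 is a basic helix-loop-helix factor held in the cytoplasm through folliculin and mTORC1, and FBP1 is the gluconeogenic phosphatase that opposes phosphofructokinase.

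Every one of the 9 genes differed between the states. In edgeR's quasi-likelihood test, adjusted by the Benjamini-Hochberg method over 27633 genes, 6 were lower in primed hESCs (DPPA2, DPPA3, DPPA5, TFCP2L1, TFE3 and FBP1) and 3 were higher (DPPA4, ESRRB and NR5A2). The same test called 70.0% of all genes tested, 32.6% as lower and 37.4% as higher in primed hESCs, so a call by itself does not set these genes apart. A log2 fold change beyond 1 together with the call was found for 6 of the 9 genes and for 47.1% of all genes. The ranges of normalized counts in the states did not overlap for 9 of 9, against 84.4% of all genes tested. The median log2 fold change, given throughout as primed over naïve, was -0.81 over the 9 genes and 0.08 over all genes. In bulk RNA, fewer cells with a transcript and less of it in each cell cannot be told apart.

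**Figure D1:**
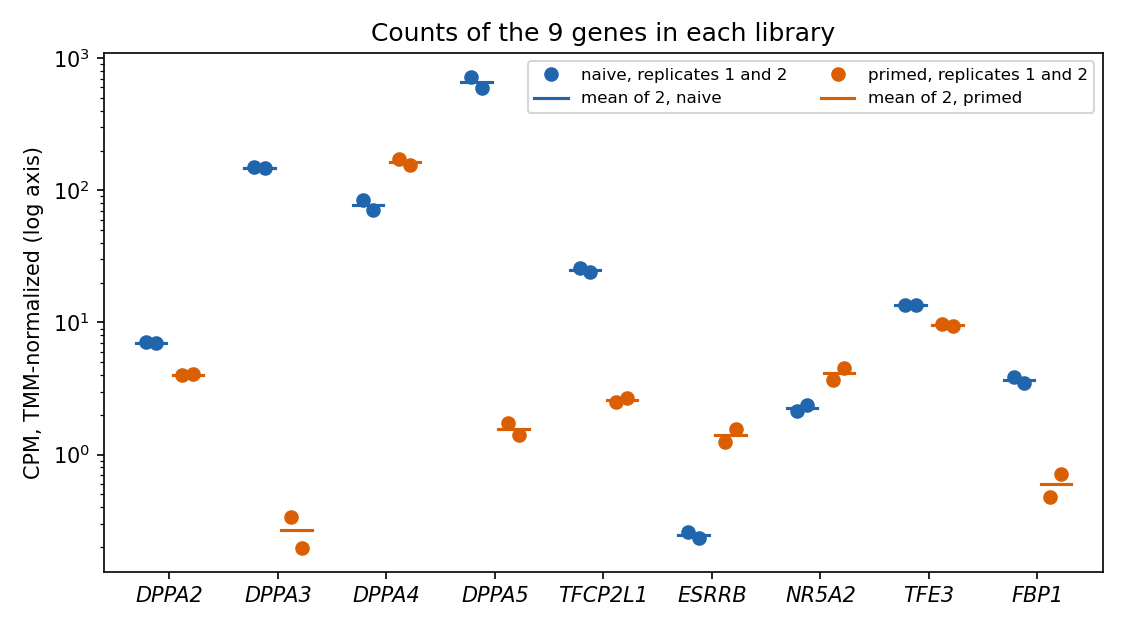
Normalized counts-per-million (CPM, log axis) of the 9 genes in each library. Points are the 2 naïve (blue) and 2 primed (orange) libraries and lines their means; DPPA3 drops from 148 to 0.267 CPM and DPPA5 from 662 to 1.57 CPM, while DPPA4, ESRRB and NR5A2 are higher in the primed libraries.

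The scaling between libraries bears on the weaker changes. Counts were scaled by the TMM method, with factors of 0.779 and 0.824 for the naïve libraries against 1.25 and 1.24 for the primed ones. With library size in place of TMM, the median over all genes moved from 0.08 to 0.72 on the log2 scale, and the calls moved from 10327 higher and 9009 lower to 15525 higher and 4511 lower. Seen against that shift, TFE3 changed sign to 0.14 (adjusted p = 0.462) and DPPA2 came to -0.17 (adjusted p = 0.443), and neither passed the test. For the other 7 genes the direction and the call were the same under both scalings and in DESeq2.

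**Figure D2:**
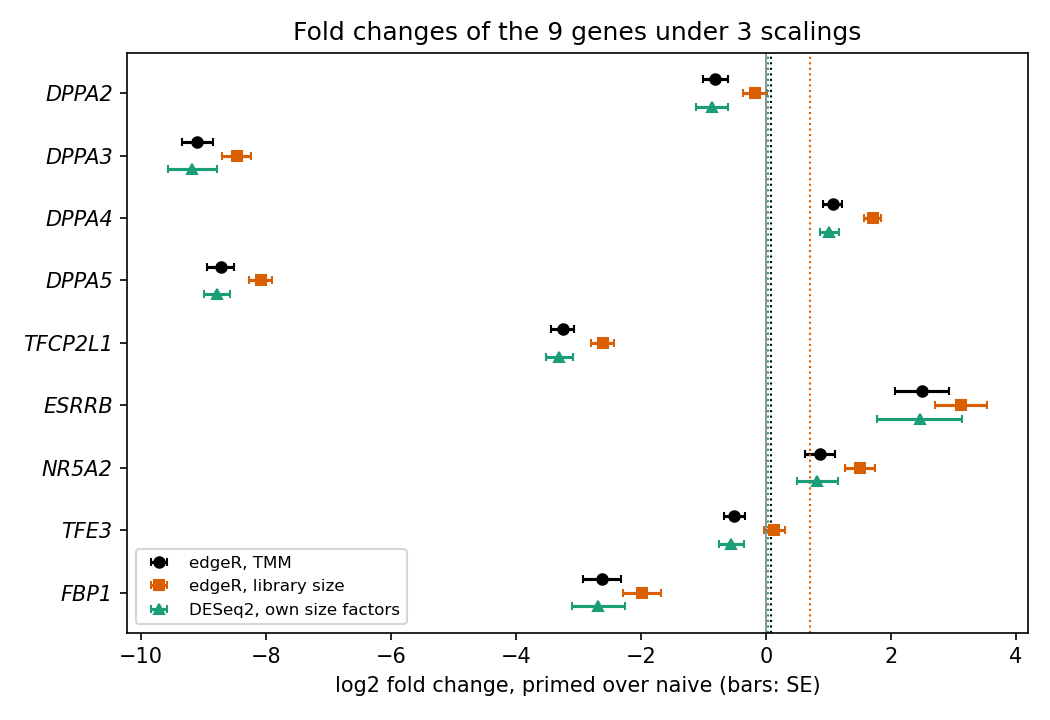
Log2 fold changes of the 9 genes with their SE under edgeR with TMM (black), edgeR with library size (orange) and DESeq2 (green); dotted lines mark the median of all genes in each. Library size moves all values to the right with the median, from 0.08 to 0.72, and TFE3 crosses 0.

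DPPA3 was among the genes most specific to the naïve libraries. It had 3469 and 3745 naïve counts against 10 and 6 primed counts, or 150.3 and 147 counts-per-million (CPM) against 0.339 and 0.196 CPM after scaling. Both naïve libraries lay far above both primed libraries, which sit close to the limit of 3 counts that a count of 0 allows (0.0978 to 0.102 CPM in the primed libraries, for counting error alone, since reads carry no molecular identifiers). The mean fell from 148 ± 2.54 (SD, n = 2) to 0.267 ± 0.102 CPM, 555-fold, with a log2 fold change of -9.10 (SE 0.247, adjusted p = 2.52e-31 by edgeR's quasi-likelihood test). Of the 27633 genes tested, 85 had a lower log2 fold change.

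DPPA5 was the most abundant of the 9 genes in naïve hESCs. Its naïve counts were 16741 and 15306 and its primed counts 51 and 43, which is 725 and 599 CPM against 1.73 and 1.40 CPM. The states did not overlap, and the naïve libraries differed from each other more than for DPPA3. The fall from 662 ± 88.9 to 1.57 ± 0.233 CPM (SD, n = 2) was 423-fold, with a log2 fold change of -8.72 (SE 0.213, adjusted p = 9.46e-33 by edgeR). A lower log2 fold change was found for 100 of the genes tested.

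DPPA4 and DPPA2 are adjacent on chromosome 3, in the same orientation and 9.63 kb apart, and moved in opposite directions. DPPA4 (DPPA4-201) had 1956 and 1818 naïve counts against 5059 and 4764 primed counts, so that both primed libraries were above both naïve ones. It rose 2.10-fold, from 78.0 ± 9.56 to 163 ± 11.6 CPM (SD, n = 2), with a log2 fold change of 1.07 (SE 0.145, adjusted p = 1.86e-08 by edgeR). For DPPA2, naïve counts of 163 and 180 met primed counts of 117 and 125. The mean fell 1.75-fold, from 7.06 ± 0.00767 to 4.02 ± 0.0722 CPM (SD, n = 2), with a log2 fold change of -0.81 (SE 0.20, adjusted p = 4.37e-04 by edgeR). DPPA4 rose under every scaling, while DPPA2 fell or did not pass the test. The proteins act as a pair, and within a library the ratio of their counts does not depend on scaling. DPPA4 over DPPA2 was higher in both primed libraries than in both naïve ones. The ratio itself was not tested.

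The sequences before the starts of these genes are shown because the 4 DPPA genes divide into strong falls, a weak fall and a rise. Each run holds the 250 bases before the RefSeq start in GRCh38.p14, written 5′ to 3′ on the gene's own strand with CG dinucleotides in capitals. The windows are chr12:7711183-7711432 on the plus strand for DPPA3, chr6:73354277-73354526 on the minus strand for DPPA5, chr3:109337547-109337796 on the minus strand for DPPA4 and chr3:109316518-109316767 on the minus strand for DPPA2.
DPPA3 promoter: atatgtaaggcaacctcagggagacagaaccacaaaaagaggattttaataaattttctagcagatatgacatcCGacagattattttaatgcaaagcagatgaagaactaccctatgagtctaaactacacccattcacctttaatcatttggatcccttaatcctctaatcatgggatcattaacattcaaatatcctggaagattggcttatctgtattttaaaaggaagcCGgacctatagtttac
DPPA5 promoter: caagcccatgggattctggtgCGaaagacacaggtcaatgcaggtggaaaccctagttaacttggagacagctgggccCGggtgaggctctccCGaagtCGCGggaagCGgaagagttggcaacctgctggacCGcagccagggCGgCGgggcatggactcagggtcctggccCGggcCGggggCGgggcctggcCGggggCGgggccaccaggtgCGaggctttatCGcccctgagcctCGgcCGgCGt
DPPA4 promoter: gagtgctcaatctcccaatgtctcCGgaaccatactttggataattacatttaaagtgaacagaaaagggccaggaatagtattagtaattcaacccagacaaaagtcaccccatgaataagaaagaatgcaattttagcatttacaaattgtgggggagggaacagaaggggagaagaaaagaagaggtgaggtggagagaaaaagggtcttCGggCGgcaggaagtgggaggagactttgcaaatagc
DPPA2 promoter: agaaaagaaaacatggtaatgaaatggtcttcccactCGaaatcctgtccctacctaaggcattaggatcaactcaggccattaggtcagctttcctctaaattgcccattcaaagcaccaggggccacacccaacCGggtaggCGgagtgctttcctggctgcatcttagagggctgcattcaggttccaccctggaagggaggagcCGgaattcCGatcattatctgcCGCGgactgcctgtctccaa
Over the 300 bases around the start, DPPA3 held 6 CG dinucleotides, DPPA4 5 and DPPA2 7, below the median of 14 over 35116 RefSeq promoters, and DPPA5 held 20. The low CG content of DPPA3 and the higher one of DPPA5 stand beside falls of similar size, and the low CG contents of DPPA3 and DPPA4 beside changes in opposite directions. Across the 12 RefSeq promoters of the 9 genes, CG counts ran from 0 at the first NR5A2 start to 43 at TFCP2L1. The letters AAGGTCA, an extended half-site of ESRRB and NR5A2, CACGTG, the E-box that TFE3 can bind, and ATTTGCAT, the octamer of POU5F1, were searched on both strands and were in 0 of the 12 promoters, against 3.92%, 7.26% and 1.77% of all promoters. TATAAA was in 2 of the 12, at NR5A2 and ESRRB, and in 11.5% of all. None of these motifs overlaps another in its letters, and no match says nothing of binding elsewhere.

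Counts of DPPA3 include alignments that cannot be separated from those of its copies, since the files count an alignment at each place where a read aligned. GENCODE names 11 processed or other pseudogenes after DPPA3, of which 2 had at least 10 counts in a library and 7 had none. DPPA3P1 on chromosome X had 3773 and 3957 naïve against 9 and 6 primed counts, and DPPA3P2 on chromosome 14 had 3349 and 3609 against 7 and 6. Their counts follow those of DPPA3 library by library, and they match its transcript over 465 bases at 97.8% and 478 bases at 98.5% identity. The DPPA3 transcript has 1100 exonic bases in 4 exons, and the annotated copies have 469 and 478 bases. Bases outside the aligned part could thus also tell them apart, which was not tested. The stretch of 120 coding bases that differs most is given, with the copies' differing bases in capitals. It holds coding bases 197 to 316 of 480 (stop codon included).
DPPA3: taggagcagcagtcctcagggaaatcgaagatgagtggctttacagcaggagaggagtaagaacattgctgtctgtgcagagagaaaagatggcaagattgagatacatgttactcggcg
DPPA3P1: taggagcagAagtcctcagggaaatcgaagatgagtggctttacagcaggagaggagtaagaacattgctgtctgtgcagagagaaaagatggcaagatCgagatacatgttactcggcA
DPPA3P2: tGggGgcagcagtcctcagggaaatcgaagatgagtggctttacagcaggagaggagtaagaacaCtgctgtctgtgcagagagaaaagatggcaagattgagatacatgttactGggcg
Over the 457 bases that were compared in all of them, DPPA3P1 differed from DPPA3 at 10 and DPPA3P2 at 7. Which of the 3 loci gave the RNA was not tested, and the direction is the same at each. The other DPPA genes were less affected, as DPPA4P3 on chromosome 11 had 5 and 10 naïve and 19 and 19 primed counts, a small share of DPPA4, and no copy of DPPA2 (4 named) or DPPA5 (3 named) reached 10 counts.

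The neighbours of DPPA3 and DPPA5 were mostly naïve-high as well. Within 100 kb of DPPA3, 5 of 5 genes tested were lower in primed hESCs with TMM (4 with DESeq2, 3 with library size), against 32.6% of all genes. GDF3, a TGF-β family ligand 15.7 kb away, had 859 and 815 naïve against 135 and 134 primed counts (log2 fold change -2.95, SE 0.173, adjusted p = 2.74e-19). NANOG, the homeobox factor 71.8 kb away, had 1955 and 2089 against 798 and 828 counts (-1.62, adjusted p = 4.41e-13). SLC2A14, CLEC4C and NANOGNB were the others. NANOG and SLC2A14 have close copies elsewhere in the genome whose alignments were not separated. Around DPPA5, 6 of 8 genes tested were lower and 2, KHDC1 and its antisense gene KHDC1-AS1, were higher, with the same counts under library size and DESeq2. KHDC3L, a gene of the maternal oocyte complex 8.38 kb from DPPA5, had 1134 and 1050 naïve counts and 0 in each primed library, at least 452-fold lower against a floor of 3 counts per library. DDX43, an RNA helicase, had 399 and 464 against 18 and 15 counts, and CGAS, the cytosolic DNA sensor, 258 and 295 against 100 and 119. The falls at the neighbours were smaller than that of DPPA3 itself in all 5 cases, and at DPPA5 2 of the 8 neighbours, KHDC3L and the readthrough gene ENSG00000243501, fell further than DPPA5. Neighbours are not all separate measurements, since OOEP overlaps OOEP-AS1, KHDC1 overlaps KHDC1-AS1, and the readthrough gene runs over KHDC1L and into KHDC1. These neighbours were picked by distance after earlier results of these data were known.

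**Figure D3:**
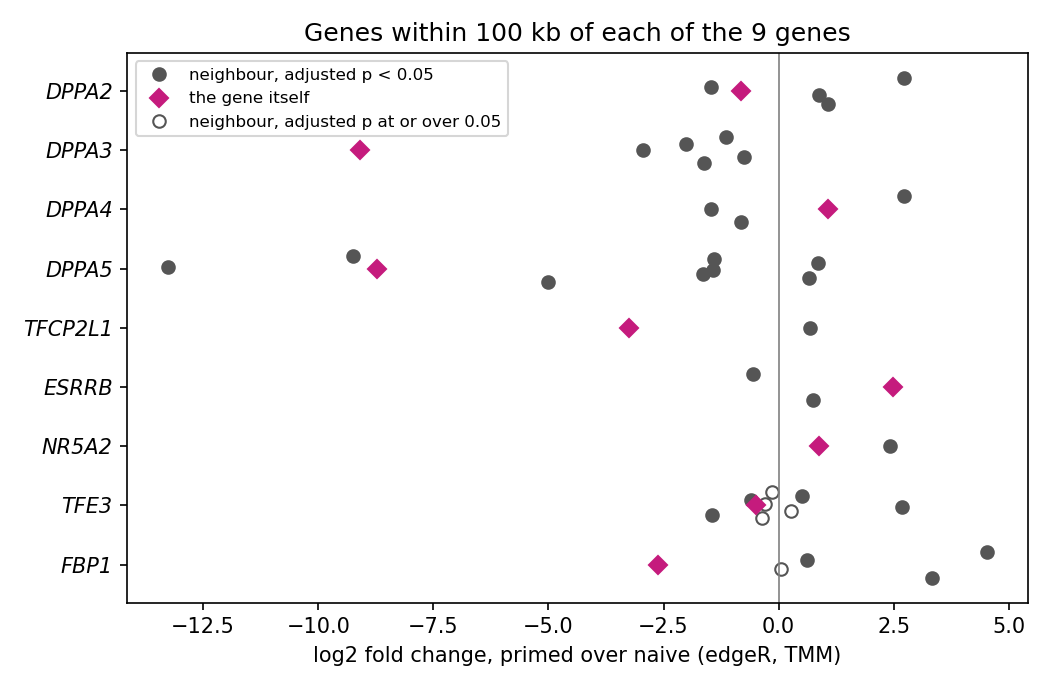
Log2 fold changes (primed over naïve, edgeR with TMM) of genes within 100 kb of each of the 9 genes. Grey circles are neighbours, filled where the adjusted p is under 0.05, and diamonds are the genes themselves; neighbours of DPPA3 are all to the left of 0, while those of FBP1 are all to the right although FBP1 is to the left.

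At the DPPA2 and DPPA4 locus, the annotated long noncoding gene ENSG00000289358 starts 193 bases from DPPA4 on the opposite strand. It had 67 and 71 naïve against 526 and 609 primed counts, so that it rose with DPPA4 and further (log2 fold change 2.73, SE 0.190, adjusted p = 1.01e-16 by edgeR). LINC01205, 72.5 kb from DPPA4, moved as DPPA2 did, with 141 and 196 against 62 and 89 counts. The locus therefore held changes in both directions within 100 kb.

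Transcript spans of DPPA4 also showed where its alignments lie. DPPA4-203 covers the part toward the 3′ end of the gene (chr3:109326853-109330760) and DPPA4-207 the part toward the 5′ end (chr3:109333396-109337545), 2635 bases apart inside DPPA4-201. The share of DPPA4-201 alignments that missed DPPA4-203 was 23.7% (95% Wilson interval 21.8 to 25.6) and 24.4% (22.4 to 26.4) per naïve library and 11.5% (10.7 to 12.4) and 13.8% (12.8 to 14.8) per primed library. From the same counts, at least 549 and 501 naïve alignments and at least 2577 and 1977 primed alignments touched both ends, which is at least 28.1% and 27.6% against at least 50.9% and 41.5% of DPPA4-201. The shares that missed DPPA4-203 did not overlap between the states, whereas the shares that touched both ends are lower limits and do not order them. The part of read length in this was not tested. The level was 2.41-fold higher in primed hESCs inside DPPA4-203 and 2.39-fold higher inside DPPA4-207, and the alignments that missed DPPA4-203 came to 18.7 ± 1.91 and 20.6 ± 1.12 CPM (SD, n = 2). None of the DPPA4 isoforms passed the test of isoform usage, in which their spans share alignments.

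TFCP2L1 had the largest fall among the transcription factors of the 9 genes. It had 596 and 611 naïve against 74 and 83 primed counts, or 25.8 and 23.9 CPM against 2.51 and 2.70 CPM. All naïve values were above all primed values. The fall from 24.9 ± 1.33 to 2.61 ± 0.136 CPM (SD, n = 2) was 9.54-fold, with a log2 fold change of -3.25 (SE 0.184, adjusted p = 9.18e-20 by edgeR). Alignments outside the retained-intron transcript TFCP2L1-202 made up 92.3% and 89.9% of the gene's naïve count and 82.4% and 88.0% of its primed count, and their level was 10.2-fold lower in primed hESCs, against 5.76-fold lower inside it.

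ESRRB was scarce in both states and higher in primed hESCs. The counted transcript, ESRRB-205, had 6 and 6 naïve against 37 and 48 primed counts, which is 0.260 and 0.235 CPM against 1.26 and 1.56 CPM. The rise was 5.70-fold, from 0.247 ± 0.0176 to 1.41 ± 0.218 CPM (SD, n = 2), with a log2 fold change of 2.49 (SE 0.431, adjusted p = 2.32e-06 by edgeR). With counts summed over all 8 transcripts the log2 fold change was 1.43 (adjusted p = 0.00601). Without either primed library, ESRRB no longer had 10 counts in 2 libraries and was not tested.

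Most of the primed ESRRB alignments lay before the start of the other annotated isoforms. ESRRB-205 starts 60635 bases before ESRRB-201, at chr14:76310712, and at least 25 of 37 and 26 of 48 primed alignments were in that first stretch, against at least 1 of 6 and 0 of 6 naïve alignments. These are lower limits, and with 6 counts a naïve share is not known well enough to be set against the primed one. ESRRB-208, the reference isoform, had 5 and 7 naïve and 12 and 21 primed counts, and ESRRB-201 5 and 7 against 12 and 22. The long noncoding gene ENSG00000259124 shares 3113 bases with the 3′ end of ESRRB-205 on the other strand, with 147 and 209 naïve and 113 and 185 primed counts, and since strand was not used its alignments there can enter the ESRRB count. The shared bases are not in the first stretch.

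NR5A2, also known as LRH-1, was higher in primed hESCs over the later part of its span and not over its start. NR5A2-203 had 49 and 61 naïve against 109 and 140 primed counts, with no overlap. It rose 1.83-fold, from 2.26 ± 0.188 to 4.13 ± 0.610 CPM (SD, n = 2), with a log2 fold change of 0.87 (SE 0.243, adjusted p = 0.00162 by edgeR). When counts were summed over all 6 transcripts the value was 0.35 and did not pass the test (adjusted p = 0.186).

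NR5A2-205 covers the first 16879 bases of the gene (chr1:200027657-200044535) and lies inside NR5A2-201, which runs on for another 131068 bases. Inside NR5A2-205, 39 and 44 naïve alignments met 28 and 28 primed ones, 1.83-fold lower, from 1.71 ± 0.0240 to 0.931 ± 0.0268 CPM (SD, n = 2), or 1.18-fold lower with library size. Alignments of NR5A2-201 that missed it numbered 10 and 15 naïve and 81 and 111 primed, 6.24-fold higher, from 0.510 ± 0.109 to 3.18 ± 0.614 CPM (9.66-fold with library size). The outer stretch thus held 20.4% (95% Wilson interval 11.5 to 33.6) and 25.4% (16.1 to 37.8) of naïve NR5A2-201 alignments and 74.3% (65.4 to 81.6) and 79.9% (72.4 to 85.7) of primed ones, and the shares of the states did not overlap. The Wilson intervals here and for DPPA4 cover counting error only and treat alignments as independent, which they need not be, and those of the primed DPPA4 libraries do not overlap each other. In a second nested pair, 11 and 15 naïve and 74 and 98 primed alignments of NR5A2-206 missed NR5A2-202. This pair covers much of the same later stretch and is not a separate measurement. The annotated genes inside the span, RNU6-570P and ENSG00000229220, had no count in any library.

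The test of isoform usage sets each isoform against the others of its gene. It called 1 of 30 isoforms tested from the 9 genes and 0.556% of all 159577 isoforms tested. An alignment counts for every isoform whose span it overlaps, so isoforms of a gene share alignments. The test treats their counts as separate, so its adjusted p and the fractions do not measure use of spliced isoforms. The call was NR5A2-204, a short isoform within the first stretch, whose isoform fraction went from 68.8% to 49.5% (adjusted p = 0.00674, edgeR diffSpliceDGE with Benjamini-Hochberg adjustment). NR5A2-205 and NR5A2-202 passed the adjusted p, with 0.00978 and 0.0136, but their fractions changed by less than 0.1. The fraction divides the count over the whole span by the exonic length, which is 213 bases for NR5A2-204. Without division by length it went from 14.3% to 5.69%, a change under 0.1, and the call was lost, and with a minimum of 50 counts NR5A2-204 was not tested. The call on NR5A2-204 held when primed replicate 1 was left out and was lost when any of the other 3 libraries was. DPPA2, DPPA3 and DPPA5 have 1 annotated transcript each and could not be tested.

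**Figure D4:**
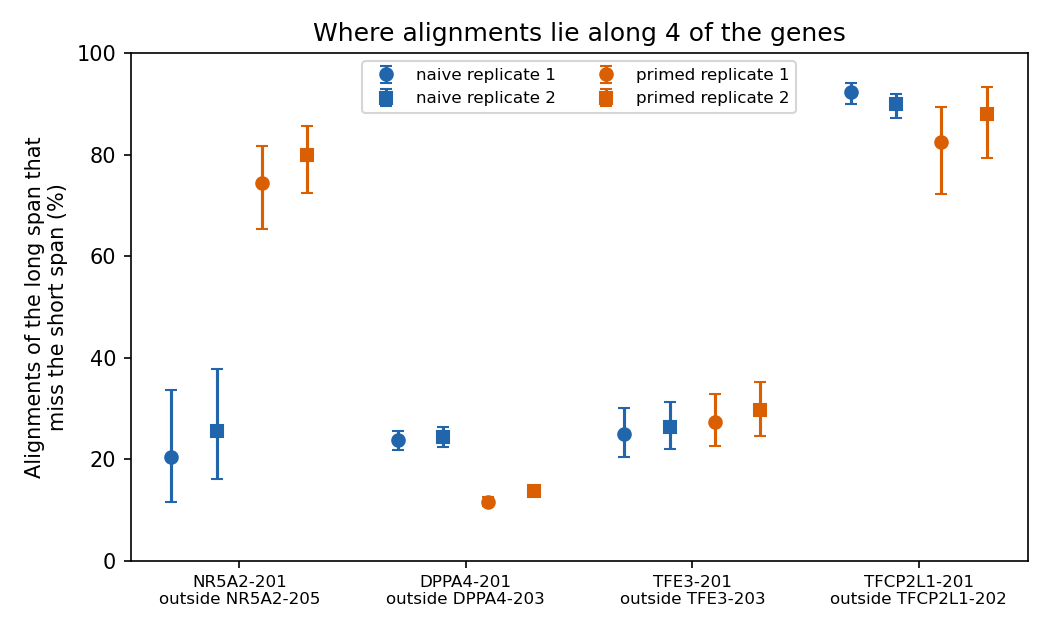
Share of alignments of a long transcript span that miss a shorter span nested in it (%), with 95% Wilson intervals, in each of the 4 libraries. NR5A2 goes from 20.4% and 25.4% (naïve) to 74.3% and 79.9% (primed), DPPA4 goes from 23.7% and 24.4% to 11.5% and 13.8%, and TFE3 stays between 24.9% and 29.6%.

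TFE3 changed least of the 9 genes. It had 313 and 346 naïve against 289 and 287 primed counts, or 13.6 and 13.6 CPM against 9.81 and 9.35 CPM after TMM. The states did not overlap on that scale, and the mean was 1.41-fold lower in primed hESCs (13.6 ± 0.00487 to 9.58 ± 0.323 CPM, SD, n = 2). The log2 fold change was -0.50 (SE 0.166, adjusted p = 0.00719 by edgeR). It did not pass the test without primed replicate 1 (-0.37, adjusted p = 0.122) or without primed replicate 2 (-0.30, adjusted p = 0.203), and it reversed with library size as given above. The share of alignments outside TFE3-203 was 24.9% and 26.3% in naïve and 27.3% and 29.6% in primed hESCs, with overlapping intervals.

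FBP1 was lower in primed hESCs, and its neighbour FBP2 was higher. FBP1-203 had 90 and 89 naïve against 14 and 22 primed counts, without overlap. It fell 6.19-fold, from 3.69 ± 0.292 to 0.596 ± 0.171 CPM (SD, n = 2), with a log2 fold change of -2.62 (SE 0.307, adjusted p = 5.33e-10 by edgeR). The noncoding gene PCAT7 shares 850 bases with the 3′ end of FBP1-203 on the other strand and had 94 and 99 naïve and 197 and 170 primed counts. The isoform FBP1-202, which ends before PCAT7, had 83 and 88 against 14 and 22 counts, 5.91-fold lower, so the value was close without the shared bases. FBP2, the muscle form of the enzyme 9.32 kb away, had 12 and 14 naïve against 176 and 148 primed counts (log2 fold change 3.32, SE 0.302, adjusted p = 4.37e-13 by edgeR). PCAT7 also lies across from FBP2, and without strand the alignments cannot be assigned to one of them.

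Levels between genes were compared as CPM per kilobase of exonic length. In naïve hESCs the order was DPPA5 (1005 ± 135), DPPA3 (135 ± 2.31), DPPA4 (28.0 ± 3.43), DPPA2 (5.10 ± 0.00554), TFE3 (4.12 ± 0.00148), TFCP2L1 (2.68 ± 0.144), FBP1 (2.48 ± 0.196), NR5A2 (0.454 ± 0.0379) and ESRRB (0.161 ± 0.0115), each as mean and SD of 2 libraries. The counts cover introns, so the scale is approximate. An SD of 2 libraries can lie below counting error, as for DPPA2 (0.00554 with 163 and 180 naïve counts). Close ranks are therefore not settled by it. TFCP2L1 and FBP1 differed by less than the sum of their SDs. In primed hESCs DPPA4 led with 58.6 ± 4.18, and TFE3 (2.91 ± 0.0981), DPPA2 (2.91 ± 0.0522) and DPPA5 (2.38 ± 0.354) followed. ESRRB (0.917 ± 0.142) and NR5A2 (0.831 ± 0.123) came next, before FBP1 (0.401 ± 0.115), TFCP2L1 (0.281 ± 0.0147) and DPPA3 (0.243 ± 0.0925). By the same measure TFE3 and DPPA2, ESRRB and NR5A2, and each neighbouring pair of the last 3 did not differ beyond their spread. DPPA3 went from the second place into that lowest group.

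The genes around the 9 in the naïve network mostly fell with DPPA3, DPPA5 and TFCP2L1. Of 14 other naïve-state factors and markers, 12 were lower in primed hESCs, 1 was higher and 1 did not pass the test, with a median log2 fold change of -5.00 against 0.08 over all genes. KHDC1L (27211 and 26908 against 4 and 2 counts), DNMT3L, the cofactor of de novo methylation (4540 and 3798 against 4 and 2), ALPG, a placental-type alkaline phosphatase (3626 and 2456 against 25 and 27), and KHDC3L, given above, had the strongest falls. The smallest of the 12 falls was that of KLF17, with 2200 and 2423 naïve against 2083 and 2236 primed counts (log2 fold change -0.41). PRDM14 was the gene that rose. Of 12 primed-state markers, 12 rose, among them THY1 (0 and 0 against 2039 and 1888 counts, at least 528-fold higher), the WNT antagonist SFRP2 (0 and 0 against 1526 and 1645, at least 426-fold higher), ZIC5 (log2 fold change 7.59) and DUSP6, a feedback phosphatase of ERK (7.25). Of 8 core pluripotency genes, 4 rose, 2 fell and 2 did not pass the test, with SOX2 (2.38) and LIN28A (2.11) higher and NANOG (-1.62) and LIN28B (-1.94) lower in primed hESCs. These counts were the same with DESeq2 for all 3 lists, and with library size 11 naïve-state genes were lower and 2 higher, and 5 core genes were higher.

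Genes known to work with single members divided in direction. Of 7 methylation genes listed beside DPPA3, 4 were lower, TET2 (-1.56), TET1 (-0.78), UHRF1 (-0.67) and DNMT1 among them, and DNMT3B, which is also on the list of primed-state markers, was higher (0.88). With library size 1 of the 7 was lower and 2 were higher. Of 5 genes listed for the LIF and STAT3 pathway beside TFCP2L1, SOCS3 (-2.48), the receptor LIFR (-2.40) and IL6ST (-0.61) were lower. JAK1 and STAT3 did not pass the test. SOCS3 had 67 and 186 naïve against 28 and 27 primed counts, so its naïve libraries differed from each other. Under library size, 2 of these 5 genes were lower and 2 higher. Among 5 relatives of TFCP2L1, GRHL1 fell (539 and 615 against 30 and 29 counts). GRHL2 rose by 0.44, a call that DESeq2 did not make. Under library size, 3 of the 5 relatives were higher and 1 was lower. Of 5 nuclear receptors and cofactors tested beside ESRRB and NR5A2, NR2F2 (-6.12), NCOA3, a coactivator of ESRRB in mouse cells (-3.07), and ESRRA (-0.88) were lower, and 0 were higher (1 with library size).

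The lysosomal genes that TFE3 is known to activate were all lower in primed hESCs. Of 14, 14 fell with TMM, 13 were lower with DESeq2 and 10 with library size, and the median log2 fold change was -1.48. Overlapping genes and copies were not searched systematically for the lists, so a list gene's count can hold alignments of other loci. GLA had the highest naïve level of the 14, at 1228 against 553 CPM in primed hESCs. In the LIF list IL6ST had 2775 against 1822 CPM, and the part of other loci in these values was not tested. Among them were GPNMB (203 and 200 against 12 and 12 counts), the protease CTSB (4693 and 4538 against 458 and 453) and the autophagy receptor SQSTM1 (-1.89). Of 13 partners and regulators of TFE3, 5 were lower, 2 higher and 6 did not pass the test, with the GTPase RRAGC (-2.13) and YWHAZ (-1.20) lower and PPP3CB (1.40) and RRAGA (1.03) higher. With library size 2 were lower and 3 higher. Its relative MITF fell (-1.52) and TFEB did not pass the test.

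Steps beside FBP1 in glucose metabolism moved both ways. Of 13 genes tested, 6 were higher and 4 lower in primed hESCs (5 and 4 with DESeq2, 7 and 2 with library size). FBP2, given above, PFKFB3 (1.94), which makes the inhibitor of FBP1, and the phosphofructokinase PFKM (1.71) rose, whereas PFKL fell (-1.49). PCK1, the cytosolic first step of gluconeogenesis, had no count in any library.

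**Figure D5:**
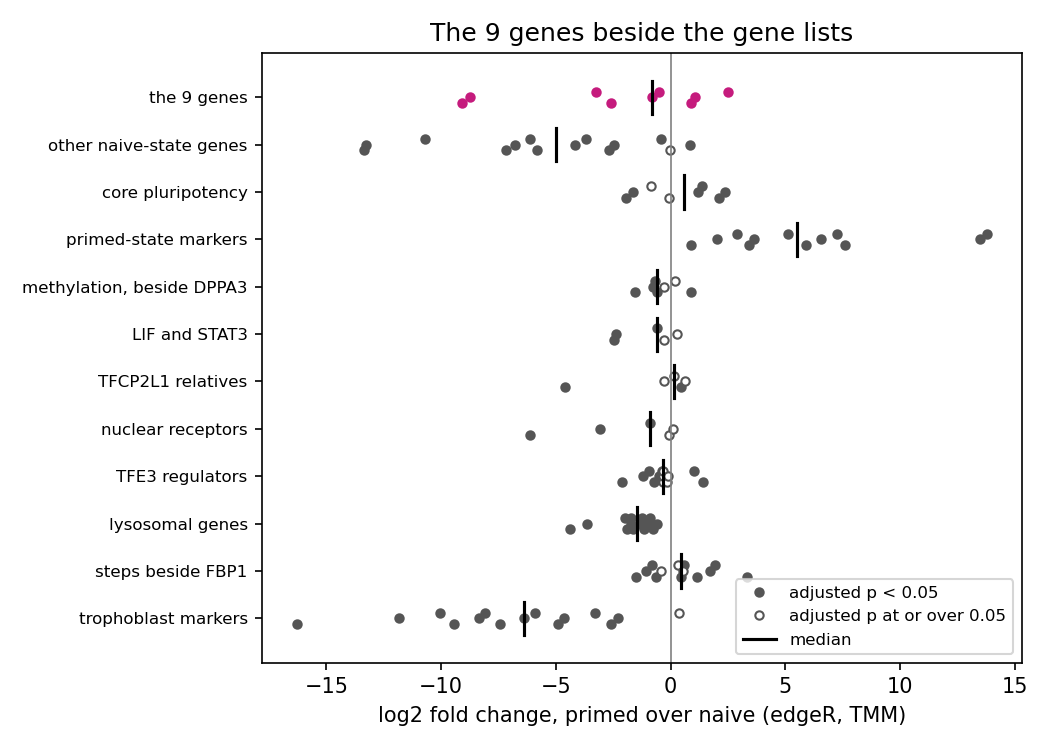
Log2 fold changes (primed over naïve, edgeR with TMM) of the 9 genes and of genes in 11 lists, 1 point per gene, filled where the adjusted p is under 0.05, with the median of each list as a line. The 14 lysosomal genes and most other naïve-state genes lie left of 0, the 12 primed-state markers right of 0, and the 9 genes on both sides.

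Markers of trophoblast cells moved with the naïve state as well. Of 15 trophoblast markers tested, 14 were lower in primed hESCs. The summed level of all 16 was 1878 and 2216 CPM per naïve library against 10.6 and 11.5 CPM per primed library. Most of the naïve sums came from CGA alone, at 1548 and 1862 CPM. CGA had 35747 and 47550 naïve against 0 and 1 primed counts, TFAP2A 823 and 1008 against 3 and 0, ERVW-1 1167 and 1615 against 0 and 3, and VGLL1 402 and 426 against 0 and 0. KRT7 did not pass the test (higher with library size), and CDX2, with 3 and 4 naïve counts, was not tested. Each of the 16 had counts in both naïve libraries, and their part in the values of DPPA3, DPPA5 and the other genes was not tested.

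The gene nearest to each of the 9 in profile was sought among 11855 protein-coding genes by the Euclidean distance between centred log2 CPM values over the 4 libraries. VGLL1 was nearest to both DPPA3 (distance 0.680) and DPPA5 (0.368). It had 0 and 0 primed counts, so these distances depend on the pseudocount of 0.05 CPM. Its fitted log2 fold change was -11.9, against -9.10 for DPPA3 and -8.72 for DPPA5. Next in rank were TFAP2A (-9.43) for DPPA3 and LIM2 (-9.03) for DPPA5. CDKN1A was nearest to TFCP2L1 (0.0178), MT1G to FBP1 (0.146) and ALDH6A1 to DPPA2 (0.0231). Among the genes that rose, STRADA was nearest to DPPA4 (0.00995), GPC4 to ESRRB (0.0966) and CTIF to NR5A2 (0.0485), and CA5B was nearest to TFE3 (0.0337). With 4 libraries in 2 states, many genes come close to any profile, and the distances are a description.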

How the data were processed

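The files hold 1 table per library, and the authors did not pool replicates. Per the file headers, the deposited values are raw counts of alignments per transcript from featureCounts 2.0.0 with the Ensembl 105 annotation of GRCh38, over whole transcript spans with introns, for every transcript overlapped and every place of a multi-mapping read, without strand. The alignments were made with minimap2 by the authors. Transcripts were matched by identifier to GENCODE 44; 242542 of 244825 matched, 97.9% of these with the same span, and the 2283 others held 1.00% of counts and were left out.

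Each gene took the count of its transcript with the largest mean. A gene entered the test with 10 or more counts in 2 or more libraries, using edgeR 4.0.16 in R 4.3.3 (TMM, quasi-likelihood, 2-sided, Benjamini-Hochberg over all genes, adjusted p under 0.05), SE being the log2 fold change over the square root of F. Isoforms were tested with diffSpliceDGE over 159577 isoforms with a change of isoform fraction beyond 0.1. CPM were TMM-normalized. Copies were aligned with blastn 2.17.0, promoters came from RefSeq, and likeness used a pseudocount of 0.05 CPM over genes with a mean of 50 or more counts. Replicates were distinct libraries, with a chi-square per degree of freedom of 14.4 (naïve) and 8.05 (primed). DESeq2 1.42.0 and the other settings are compared in the closing section.

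The 9 genes and the lists were chosen with earlier results of these data known. Beside the 9 genes, the text names up to 4 called genes with the largest change of each list and any gene without a count, the gene nearest in profile, overlapping genes, and copies with at least 10 counts in a library. Other genes named were chosen after their values were seen, and 1 gene that the rule would name is not reported here.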

Additional observations from a re-analysis of the deposited data

How the results depend on the processing

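Without either primed library, or with a minimum of 50 counts, ESRRB was not tested and has no value. Over 13 alternatives, 106 of 114 values of the 9 genes kept their direction and their side of the threshold. The exceptions were TFE3, which reversed to 0.14 with library size and was not called without primed replicate 1 or 2, DPPA2 with library size and NR5A2 with counts summed over transcripts, and DPPA2, TFE3 and NR5A2 when a log2 fold change beyond 1 was also required, which left 6 of the 9 genes called. Between 7 and 9 of the 9 genes were called when a library was left out, where the lone library is assumed to vary like the other state, and between 13608 and 16838 genes overall. Over protein-coding genes alone, a setting added after the data were seen, 11411 genes and 9 of the 9 were called, as fewer genes were tested. Of the isoforms, 3 were called without a limit on the fraction, 0 with a limit of 0.2, 0 with at least 50 counts, 0 with fractions that ignore length, and between 0 and 1 with a library left out. Nothing shows that the replicate numbers pair the samples (correlation of deviations 0.0714 with 2 pairs), and with the replicate block 19688 genes, 9 of the 9 genes and 1 isoform were called. Depth limits ESRRB in naïve hESCs and DPPA3 in primed hESCs, each at 10 counts or fewer per library.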

Other observations

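Markers of other cell types and stages moved in both directions between the states. Whether such cells were present was not tested. Of 5 primitive endoderm markers tested, 3 were lower in primed hESCs, HNF4A (log2 fold change -3.93), GATA6 (77 and 99 naïve against 16 and 37 primed counts) and COL4A1, while PDGFRA was higher (1 and 13 against 44 and 33). With library size 2 were lower and 2 higher. SOX17 and FOXA2 stayed at 7 counts or fewer in each library. Of the neuroectoderm markers, NES (41 and 54 against 376 and 381), DCX (7 and 4 against 81 and 70) and PAX6 (3 and 4 against 18 and 10) were higher in primed hESCs, 2 of these 3 with DESeq2, and SOX1 had 1 count in a single library. Of 5 mesoderm and fibroblast markers tested, COL1A2 (9 and 17 against 706 and 605), COL1A1 (36 and 30 against 948 and 1174) and PDGFRB were higher, the last not with DESeq2 (4 of the 5 were higher with library size), and DCN had at most 1 count in a library.

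DPPA2 and DPPA4 are known to prime genes of genome activation in mouse cells. Human genes of genome activation, listed as their counterparts, were near 0 in both states. Of 8 listed, TRIM43 alone had enough counts to be tested, with 16 and 11 naïve and 0 and 0 primed counts, at least 5.63-fold lower in primed hESCs. ZSCAN4 had 5 and 3 naïve and 10 and 8 primed counts, and DUX4 5 and 1 against 0 and 0. LEUTX, DUXA and KDM4E stayed at 4 counts or fewer in each library.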
